A study of Homo sapiens with 6 samples.

Results

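The genes described here are 10 sensors, adaptors, kinases and brakes of the cellular response to foreign or misplaced nucleic acid: DDX58, IFIH1, DHX58, MAVS, TLR3, MB21D1, TMEM173, TBK1, IKBKE and TREX1. They were taken by name from textbook membership of the pathway, but with earlier results of these data known, so the choice was not blind. All 10 were found among the 29889 genes of the count table, and all 10 were among the 15847 genes with enough counts to be tested. They were measured by RNA-seq in A549, an established cell line from a human lung adenocarcinoma. Lipofectamine was used to deliver a pIRES-hrGFP-1a plasmid carrying CELF6, an RNA-binding protein of the CELF family (CELF6-OE, 3 libraries), or the plasmid without insert (Control, 3 libraries), and cells were harvested 48 h later. Both groups therefore received plasmid DNA and transfection reagent, and untransfected cells are not analysed here. Transfection was transient, so a library may mix cells with and without the plasmid.

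Cells detect nucleic acid in the wrong place with a small set of receptors. RIG-I (encoded by DDX58) and MDA5 (IFIH1) bind viral-type double-stranded RNA in the cytosol and signal through MAVS on the mitochondrial surface, while TLR3 reads double-stranded RNA in endosomes. For DNA, cGAS (MB21D1) makes the messenger cGAMP, which activates the adaptor STING (TMEM173) at the endoplasmic reticulum. Both routes meet at the kinases TBK1 and IKBKE, which activate the transcription factor IRF3 and so induce type I interferon, and several of the receptors are themselves known as interferon-stimulated genes.

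The libraries held between 33748328 and 37920700 counts on genes. The CELF6 count was 18646, 20789 and 11571 in the CELF6-OE libraries and 0 in each Control library, so the labels and the target gene matched. All 8 epithelial markers looked up were tested, and KRT8, an epithelial keratin, had between 135736 and 229368 counts. CDH1, the epithelial cadherin, was called lower in CELF6-OE (log2 fold change -1.62, edgeR adjusted p = 0.000105), and the keratins KRT8, KRT18 and KRT19 were lower on adjusted p alone (-0.47, -0.36 and -0.22). The summed level of the 8 markers was 16300 to 18800 CPM (counts scaled to the library total) in CELF6-OE and 20500 to 20800 CPM in Control. Of 12 leukocyte markers, 10 were in the table and 5 had enough counts, and the defining leukocyte marker PTPRC had at most 2 counts in any library. Of the 5 tested, CD74, an MHC class II chaperone that interferon induces (-5.60), and ITGAM, a myeloid integrin (-0.73), were called lower. CD14 (0.17), LCP1 (0.24) and CORO1A (0.18) were fitted higher and not called, and the median of the 5 was 0.17. The summed leukocyte level was 14.2 to 17.7 CPM in CELF6-OE and 24.1 to 28.0 CPM in Control, and without CD74, which was left out after its value was seen, 13.8 to 17.6 and 13.7 to 15.3 CPM. Fibroblast markers summed to 1.78 to 2.4 CPM in CELF6-OE and 2.59 to 3.24 CPM in Control, and endothelial markers to 0.0847 to 0.178 and 0.302 to 0.501 CPM, with PECAM1 called lower (-1.86) on 3 to 17 counts a library. The part of these markers in the results was not tested.

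Across the 10 genes, the receptors that bind RNA, the adaptor STING and the exonuclease TREX1 were lower in CELF6-OE, whereas the adaptor MAVS, the DNA sensor cGAS and the kinase TBK1 were not called. A gene was called when edgeR's quasi-likelihood test gave a Benjamini-Hochberg adjusted p under 0.05 with a change of 1.5-fold or more. By this rule 6 of the 10 were called lower (DDX58, IFIH1, DHX58, TLR3, TMEM173 and TREX1), beside 5.82% of all genes tested. None was called higher, beside 1.35% of all genes tested; DESeq2 and limma-voom called 0 higher as well, and 1 gene, MAVS, was higher at an unadjusted p under 0.05, as were 14.8% of all genes. On adjusted p alone 7 were lower, IKBKE being added, where 11.5% of all genes passed, and 0 were higher, where 6.47% passed. The median log2 fold change was -1.16 over the 10 genes and 0.01 over all genes tested. In bulk RNA, fewer cells expressing a gene and less RNA per cell cannot be told apart.

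The levels per transcript length, in FPKM (fragments scaled by transcript length and by the mapped fragments of the library, as the authors deposited them), spanned a wide range. In Control, DDX58 had the highest mean level, followed by TREX1 and IFIH1, which overlapped each other, then TBK1, IKBKE and MAVS, which overlapped, then DHX58, TLR3, and the overlapping pair TMEM173 and MB21D1. In CELF6-OE, DDX58 stayed at the top, TREX1, IFIH1, MAVS and TBK1 followed, each overlapping its neighbour in that order, and TMEM173 fell clear of every other gene to the bottom. DHX58, which stood above MB21D1 in every Control library, overlapped it in CELF6-OE. On log2(FPKM + 1), the 2-sided exact permutation p between groups was 0.1 for 8 of the genes, 0.8 for MB21D1 and 1 for TBK1.

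**Figure D1:**
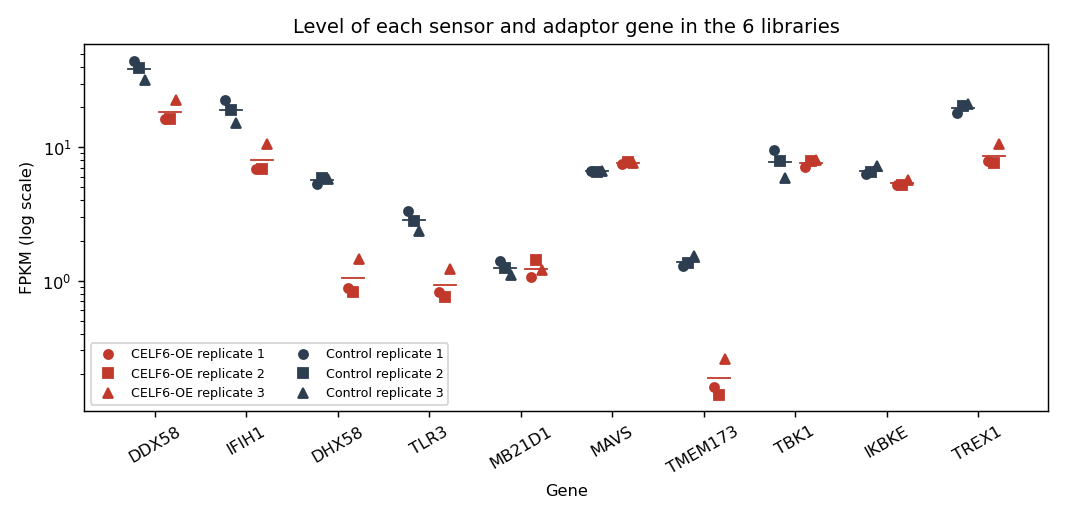
FPKM on a log axis for each of the 10 genes, with circles, squares and triangles for replicates 1, 2 and 3, Control in dark blue and CELF6-OE in red, and a horizontal line at each group mean. The CELF6-OE libraries lie below all Control libraries for DDX58, IFIH1, DHX58, TLR3, TMEM173, IKBKE and TREX1, above them for MAVS, and among them for MB21D1 and TBK1.

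DDX58 (now RIGI; GRCh38 chromosome 9, 32455302 to 32526208, minus strand) encodes RIG-I, which recognises short double-stranded RNA with a phosphorylated end. It measured 16.4, 16.4 and 22.6 FPKM in CELF6-OE replicates 1 to 3 and 44.6, 39.2 and 31.7 FPKM in Control replicates 1 to 3. The groups did not overlap, and CELF6-OE replicate 3 was the nearest to Control. The counts fell 2.12-fold (95% interval 1.74 to 2.59; log2 fold change -1.09, SE 0.13, adjusted p = 0.000248). In GENCODE release 44, 43.2% of its exonic bases overlap another protein-coding gene model on the same strand that has no row in the count table.

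IFIH1 (chromosome 2, 162267074 to 162318684, minus strand) encodes MDA5, the receptor for long double-stranded RNA. Its level was 6.87, 6.85 and 10.5 FPKM in CELF6-OE and 22.8, 19.2 and 15.3 FPKM in Control. Again no CELF6-OE library reached a Control library. The fall was 2.41-fold (1.87 to 3.09; log2 fold change -1.27, SE 0.16, adjusted p = 0.000382).

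DHX58 (chromosome 17, 42101404 to 42112714, minus strand) encodes LGP2, a relative of both receptors that lacks the signalling domains and modulates them. The CELF6-OE libraries held 84, 80 and 134 counts of it and the Control libraries 528, 602 and 594, or 0.88, 0.82 and 1.45 FPKM against 5.33, 5.84 and 5.75 FPKM. The Control libraries lay close together here and far above CELF6-OE. The fall of 5.48-fold (4.18 to 7.19; log2 fold change -2.45, SE 0.18, adjusted p = 1.3e-05) was the one with the smallest p of the 10 genes.

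Of the 3 relatives, DHX58 fell the most, and its interval of the log2 fold change (-2.845 to -2.063) lay apart from those of DDX58 and IFIH1. The intervals of IFIH1 (-1.627 to -0.906) and DDX58 (-1.375 to -0.797) overlapped, so a different fall of IFIH1 and DDX58 was not shown. The count ratio of DHX58 to DDX58 within a library, in which library scaling cancels but an effect of GC content does not, was 0.0323, 0.0303 and 0.0386 in CELF6-OE and 0.0718, 0.0895 and 0.109 in Control. That is a 2.65-fold smaller share of DHX58, with no overlap between groups (2-sided exact permutation p = 0.1, the smallest that 3 against 3 libraries can give; 0.12 after adjustment over the 6 ratios compared). IFIH1 to DDX58 was 0.404, 0.405 and 0.451 against 0.494, 0.474 and 0.468, also without overlap (exact permutation p = 0.1, adjusted 0.12). The difference was smaller for this pair, at -0.19 on the log2 scale against -1.40 for DHX58 to DDX58. As p was at its smallest possible value for both ratios, this test cannot establish a different fall for either pair.

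TLR3 (chromosome 4, 186068911 to 186088073, plus strand) encodes the endosomal receptor for double-stranded RNA. Its level was 0.82, 0.75 and 1.23 FPKM in CELF6-OE and 3.34, 2.82 and 2.34 FPKM in Control, with no overlap. It fell 3.1-fold (2.37 to 4.05; log2 fold change -1.63, SE 0.18, adjusted p = 0.000118). The ratio of TLR3 to IFIH1 counts was 0.176, 0.161 and 0.173 in the CELF6-OE libraries against 0.217, 0.217 and 0.226 in the Control libraries, a 1.29-fold smaller share (exact permutation p = 0.1, adjusted 0.12).

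MAVS (chromosome 20, 3846799 to 3876123, plus strand), the mitochondrial adaptor on which RIG-I and MDA5 converge, did not share this direction. It measured 7.53, 7.73 and 7.69 FPKM in CELF6-OE and 6.6, 6.56 and 6.67 FPKM in Control. Every CELF6-OE library was above every Control library, as was the case for 17.9% of all genes tested. The difference was 1.13-fold (1.04 to 1.24; log2 fold change 0.18, SE 0.06) and missed the threshold at an adjusted p of 0.0559. With library size alone as the scaling it passed (adjusted p = 0.0166), also with upper quartile factors (0.0472) and without Control replicate 3 (0.025).

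On the DNA side the sensor and its adaptor parted. MB21D1 (now CGAS; chromosome 6, 73413515 to 73452297, minus strand) measured 1.07, 1.42 and 1.2 FPKM in CELF6-OE and 1.4, 1.24 and 1.1 FPKM in Control. The groups overlapped fully, and the 95% interval of the log2 fold change ran from -0.35 to 0.26 (adjusted p = 0.846), so a fold change of 1.5 in either direction lies outside it.

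TMEM173 (now STING1; chromosome 5, 139475533 to 139482935, minus strand) was counted 10, 9 and 16 times in the CELF6-OE libraries and 86, 94 and 106 times in the Control libraries, which is 0.16, 0.14 and 0.26 FPKM against 1.28, 1.35 and 1.52 FPKM. Each CELF6-OE library was far under the lowest Control library. Its fall of 7.69-fold (5.27 to 11.2; log2 fold change -2.94, SE 0.25, adjusted p = 2.96e-05) had the largest size of the 10 genes and the fewest counts. Set against MAVS, the adaptor of the RNA route, the count ratio of MAVS to TMEM173 was 322, 375 and 200 in CELF6-OE and 34.2, 32.4 and 29.2 in Control, 9.06-fold higher without overlap (exact permutation p = 0.1, adjusted 0.12).

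The kinases changed little. TBK1 (chromosome 12, 64452090 to 64502114, plus strand) measured 7.11, 7.86 and 7.98 FPKM in CELF6-OE and 9.54, 7.85 and 5.91 FPKM in Control. The Control libraries spread more widely than the groups differed, and the interval of the log2 fold change was -0.33 to 0.24 (adjusted p = 0.833). IKBKE (chromosome 1, 206470476 to 206496889, plus strand), its inducible relative, measured 5.21, 5.23 and 5.69 FPKM in CELF6-OE and 6.3, 6.54 and 7.18 FPKM in Control. It fell 1.27-fold (1.11 to 1.46; adjusted p = 0.024), under the fold required for a call, and the adjusted p rose to 0.1 without CELF6-OE replicate 1, 0.106 without CELF6-OE replicate 2 and 0.0893 without Control replicate 2. The ratio of IKBKE to TBK1 counts overlapped between groups, at 0.757, 0.687 and 0.736 against 0.681, 0.861 and 1.25 (exact permutation p = 0.4).

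TREX1 (chromosome 3, 48465811 to 48467645, plus strand), the exonuclease that clears DNA from the cytosol and so restrains cGAS, measured 7.9, 7.57 and 10.5 FPKM in CELF6-OE and 18.0, 20.3 and 21.2 FPKM in Control. It fell 2.34-fold without overlap (1.93 to 2.83; log2 fold change -1.23, SE 0.13, adjusted p = 8.32e-05). The ratio of TREX1 to MB21D1 counts was 4.41, 3.18 and 5.22 in CELF6-OE and 7.67, 9.75 and 11.5 in Control. This count ratio was 2.27-fold lower in CELF6-OE (exact permutation p = 0.1, adjusted 0.12). All 1448 exonic bases of TREX1 lie within exons of ATRIP on the same strand, so reads cannot be assigned to either gene with certainty. ATRIP itself, a partner of the checkpoint kinase ATR, was counted 459, 491 and 445 times in the CELF6-OE libraries and 431, 483 and 562 times in the Control libraries (log2 fold change -0.01, adjusted p = 0.962).

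**Figure D2:**
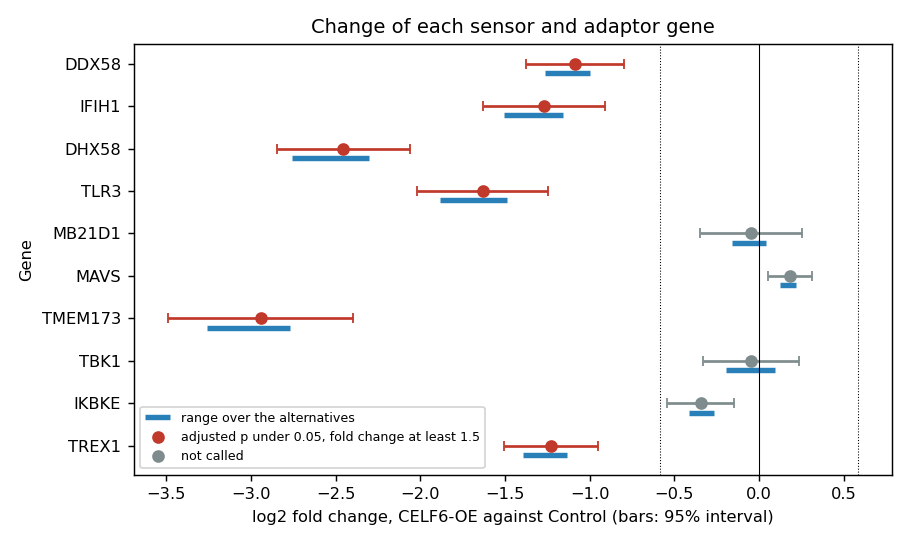
Log2 fold change of CELF6-OE against Control for each of the 10 genes (points, with the 95% interval as thin bars), red where called and grey where not, dotted lines at a fold change of 1.5, and thick blue bars for the range of the fold change over 17 other settings. The 6 called genes lie between -1.09 and -2.94 and stay beyond the dotted line under every setting, while MB21D1 and TBK1 span 0.

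In all, 7 of the 10 genes had every CELF6-OE library below every Control library, where 20.0% of all genes tested did. The 6 called genes also shared an order within CELF6-OE: replicate 3 was the nearest to Control for 6 of 6. The same library was the nearest for 652 of the 922 genes called lower (70.7%), and it held the fewest CELF6 counts, 11571. The part of the CELF6 level in this order was not tested.

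The Control libraries split the 10 genes in a second way, which crosses the calls. DDX58, IFIH1, TLR3, TBK1 and MB21D1 were higher in Control replicate 1 than in replicate 3, by 0.26 to 0.61 in log2 CPM after TMM scaling, whereas DHX58, TMEM173, TREX1, IKBKE and MAVS were higher in replicate 3 than in replicate 1, by 0.10 to 0.32. The first 5 have a GC content of 37.4 to 43.8% in their longest coding transcript, the other 5 of 52.1 to 62.8%. The same slope ran through the whole table: over 15667 genes the Pearson correlation of GC content with the difference of Control replicates 1 and 3 was -0.53 (Spearman -0.63), a description across genes, which share the same libraries. GC content was also related to the fold change, more weakly (Pearson -0.15, Spearman -0.22). With GC content and length taken out of the counts, a setting chosen after seeing the data, the 6 calls stood, at log2 fold changes of -1.17 for DDX58, -1.31 for IFIH1, -2.39 for DHX58, -1.75 for TLR3, -2.88 for TMEM173 and -1.15 for TREX1, while MAVS came to 0.13 (adjusted p = 0.115). The count ratios within a library were not corrected in this way. GC content differed most within the pairs DHX58 and DDX58 (58.5 and 39.8%), TREX1 and MB21D1 (62.8 and 43.8%) and IKBKE and TBK1 (58.7 and 37.4%).

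**Figure D3:**
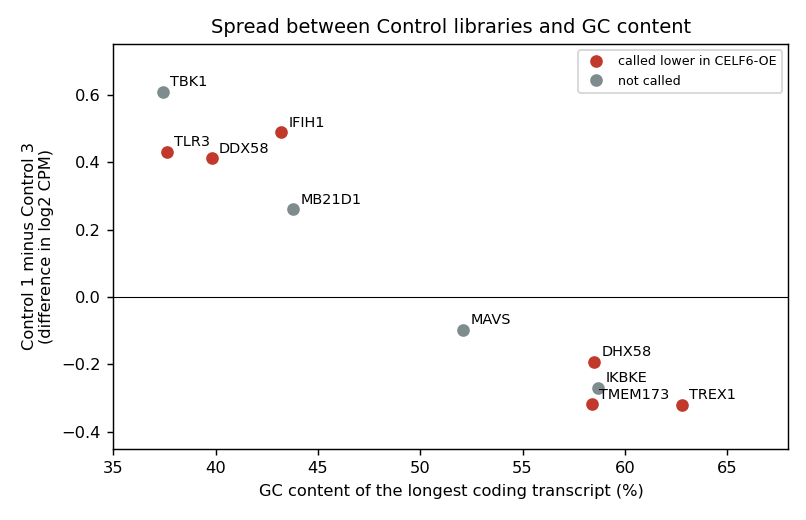
Difference in log2 CPM between Control replicates 1 and 3 against the GC content of the longest coding transcript in percent, for the 10 genes, red where called lower in CELF6-OE and grey where not. Genes of 37.4 to 43.8% GC lie above 0 and genes of 52.1 to 62.8% lie below it, with called and uncalled genes on both sides.

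The promoter windows of 4 called genes are shown for the ISRE and IRF element matches they do or do not hold. Each runs from 250 bases before to 50 bases after the RefSeq start site (GRCh38.p14), 5′ to 3′ on the gene's strand, and 7 of the 10 genes had such a window. DHX58 and TMEM173, which were called, and MB21D1, which was not, had none and were not searched. Capitals mark the core of the interferon-stimulated response element (ISRE), GAAANNGAAA, or the shorter IRF element AANNGAAA, on either strand, and neighbouring or overlapping matches run together. The windows are chr9:32526147-32526446 (minus) for DDX58, chr2:162318635-162318934 (minus) for IFIH1, chr4:186068906-186069205 (plus) for TLR3 and chr3:48465580-48465879 (plus) for TREX1.
DDX58: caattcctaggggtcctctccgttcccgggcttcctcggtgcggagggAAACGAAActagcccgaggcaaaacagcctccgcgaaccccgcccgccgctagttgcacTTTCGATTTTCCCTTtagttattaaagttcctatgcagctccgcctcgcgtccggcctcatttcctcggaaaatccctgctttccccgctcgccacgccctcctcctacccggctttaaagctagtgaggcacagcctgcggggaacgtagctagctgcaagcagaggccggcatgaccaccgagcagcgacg
IFIH1: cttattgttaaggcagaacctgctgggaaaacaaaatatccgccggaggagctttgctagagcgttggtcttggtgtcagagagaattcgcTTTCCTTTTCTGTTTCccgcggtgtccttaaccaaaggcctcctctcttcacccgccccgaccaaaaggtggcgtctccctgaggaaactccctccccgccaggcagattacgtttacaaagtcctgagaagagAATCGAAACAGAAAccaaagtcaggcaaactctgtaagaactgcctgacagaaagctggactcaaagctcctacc
TLR3: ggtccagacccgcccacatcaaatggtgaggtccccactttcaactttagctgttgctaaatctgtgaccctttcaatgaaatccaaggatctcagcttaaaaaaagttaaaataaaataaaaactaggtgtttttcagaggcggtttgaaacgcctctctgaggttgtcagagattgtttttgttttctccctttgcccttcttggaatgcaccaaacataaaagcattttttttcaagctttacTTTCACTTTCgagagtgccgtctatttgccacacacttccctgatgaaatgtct
TREX1: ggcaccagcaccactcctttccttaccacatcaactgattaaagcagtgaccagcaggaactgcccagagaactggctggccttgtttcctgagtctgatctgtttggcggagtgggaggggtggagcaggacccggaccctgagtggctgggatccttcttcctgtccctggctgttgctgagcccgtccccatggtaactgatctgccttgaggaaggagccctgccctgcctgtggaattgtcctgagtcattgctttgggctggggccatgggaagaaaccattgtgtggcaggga

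IFIH1 held the ISRE core at 3 places, beginning at -159, -153 and -21 from the start, and TLR3 held it at 1 place, -4. Of 35116 RefSeq promoter windows of this length, 3.57% held the core. DDX58 had the shorter IRF element at -202, -143 and -136 and IKBKE had it at -115, where 22.8% of windows held it. The IRF element also matched within the ISRE cores of IFIH1 and TLR3, and at -25 in IFIH1. TREX1, MAVS and TBK1 had neither within this window, so called and uncalled genes were both among the searched genes without a match. Of the genes with a match, IFIH1, TLR3 and DDX58 were called and IKBKE was not. A kappaB motif matched in DDX58 and IFIH1 at -76, where 11.3% of windows held it. A match is a description of the letters and no measured site.

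The other genes of the pathway, 95 tested of 102 in 6 lists, are given for comparison. Of these, 8 were called lower and 0 higher, with a median log2 fold change of -0.08; on adjusted p alone 21 were lower and 9 higher, beside 11.5% and 6.47% of all genes tested, and 17 were higher at an unadjusted p under 0.05, beside 14.8%. DESeq2 and limma-voom each called 0 of them higher too. Of all genes tested, 5.82% were called lower and 1.35% higher.

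Among 25 regulators of RIG-I-like receptors and MAVS, 1 was called lower, beside 5.82% of all genes tested, and the median was -0.01. It was TRIM31, a ubiquitin ligase that promotes MAVS aggregation (log2 fold change -1.43, adjusted p = 1.99e-05). On adjusted p alone 4 of the list were lower and 1 higher, beside 11.5% and 6.47% of all genes tested. Among the 4, ZC3HAV1, the zinc-finger antiviral protein ZAP (-0.34, 0.00388), and TKFC, a kinase that binds MDA5 (-0.26, 0.0264), fell less than TRIM31. The phosphatase subunit PPP1CC rose (0.24, 0.038).

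Of 31 other DNA sensors and cGAS-STING regulators tested, 4 were called lower and 0 higher, beside 5.82% and 1.35% of all genes. The median was 0.01. On adjusted p alone 6 were lower and 5 higher, beside 11.5% and 6.47% of all genes tested. The nuclear and cytosolic DNA sensor IFI16 was counted 885, 999 and 1340 times in the CELF6-OE libraries and 3611, 3566 and 2805 times in the Control libraries (log2 fold change -1.55, adjusted p = 5.2e-05). ZBP1, the sensor of left-handed nucleic acid, had 2, 12 and 12 counts against 79, 96 and 100 (-3.31, adjusted p = 9.56e-05). IFI35, an interferon-induced protein, fell as well (-1.20, 0.000151), and so did ENPP1, which hydrolyses cGAMP (-0.80, 0.00141), named after its value was seen because it completes the count. PRKDC, the catalytic subunit of the DNA-dependent protein kinase, rose by 0.54 on the log2 scale (adjusted p = 0.000441), short of a fold change of 1.5.

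The partners of TBK1 and IKBKE were lower in 5 of 13 on adjusted p (11.5% of all genes), with 1 call (5.82% of all genes) and a median of -0.16. OPTN, the autophagy receptor optineurin that binds TBK1, was the call (-0.70, adjusted p = 0.000204). NFKBIA, the NF-kB inhibitor (-0.42, 0.000944), TNIP1, a ubiquitin-binding inhibitor of NF-kB (-0.37, 0.00289), and CALCOCO2, another autophagy receptor (-0.42, 0.00421), fell by less than 1.5-fold.

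Among the endosomal receptors and adaptors, TLR7 and TLR9 had at most 3 counts in any library, so of the endosomal receptors with a row TLR3 alone was tested. Of the 6 genes of this list that were tested, 1 was called lower, beside 5.82% of all genes. It was the adaptor MYD88 (-0.67, adjusted p = 0.00022). UNC93B1, which escorts nucleic acid receptors to endosomes (-0.46, 0.00671), and the chaperone CNPY3 (-0.28, 0.0232) fell on adjusted p, and the kinase IRAK1 rose (0.27, 0.0317).

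None of 10 other RNA sensors was called in either direction by edgeR, where 5.82% of all genes were called lower and 1.35% higher. At an unadjusted p under 0.05, 2 were lower and 4 higher, beside 18.0% and 14.8% of all genes. The helicases DHX9 (0.30, adjusted p = 0.0154) and DHX15 (0.29, 0.0347) rose on adjusted p, and DHX33 (0.21, 0.0738) and DDX21 (0.26, 0.0892) did not pass. Of 10 nucleases tested, 1 was called lower, beside 5.82% of all genes. It was SAMHD1, which degrades deoxynucleotides and restricts retroviruses (-0.75, 0.000758). The lysosomal DNase DNASE2 (-0.58, 0.000255), just short of a fold change of 1.5, and PLD3, a lysosomal exonuclease (-0.32, 0.00927), fell on adjusted p, while RNASEH2B, a subunit of RNase H2, was at 0.21 (0.0781).

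**Figure D4:**
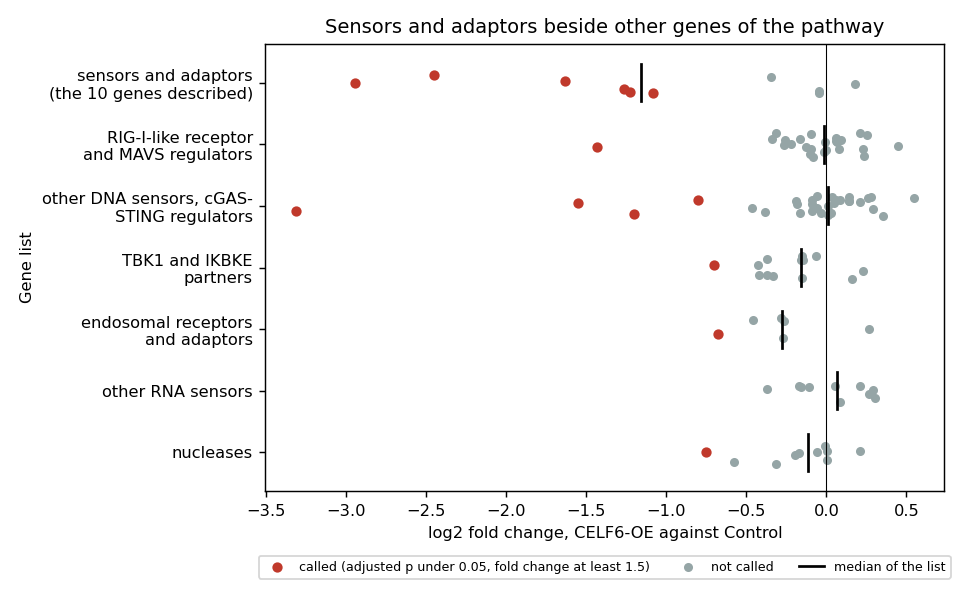
Log2 fold change of CELF6-OE against Control for the 10 sensors and adaptors and for the tested genes of 6 other lists of the pathway, each dot a gene, red where called and grey where not, with a black bar at the median of the list. The median of the 10 genes is -1.16 and the medians of the other lists lie between -0.27 and 0.07.

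Within the 10 genes, DHX58 had the smallest p, and the genes of the whole table most like it across the 6 libraries were ISG20, TRAFD1, OASL, HLA-E and PSME1, with Pearson correlations of log2 CPM between 0.9994 and 0.9996. They had log2 fold changes of -2.03, -0.88, -2.11, -1.50 and -0.92. The correlations mainly reflect the gap between the 2 groups that all of them share, so they are given as a description of 6 points.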

How the data were processed

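RNA from A549 cells was sequenced in 3 CELF6-OE and 3 Control libraries, grouped by their labels. Per the methods, reads were trimmed (FASTX-Toolkit) and aligned to GRCh38 by TopHat2, and the authors deposited unnormalised read counts per gene (unique alignments) and FPKM values. How strand was set, which tool counted and which annotation was used are not given in the sources used here, so overlapping and antisense genes cannot be told apart with certainty. The authors' FPKM were used for levels, with exact permutation tests on log2(FPKM + 1).

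Counts were scaled by TMM, filtered with filterByExpr (minimum count 10) and tested with edgeR 4.0.16 (R 4.3.3, quasi-likelihood, prior count 0.125), adjusted over 15847 genes. The biological coefficient of variation was 8.62%. DESeq2 1.42.0, limma-voom (limma 3.58.1), other scalings and filters, other thresholds, a replicate block and leaving out each library were alternatives. A GC and length correction was added after seeing the data. The procedure was also run on simulated counts without the GC-related spread between Control libraries, and the outcome is not given here. GENCODE release 44 gave positions, matched by Ensembl identifier. A further motif searched in the promoter windows is not reported here.

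The 10 genes and the other lists were chosen with earlier results of these data known. From each other list, at most 4 genes with the smallest p are named, plus the 5 genes most correlated with the gene of smallest p among the 10. Outside this rule, ENPP1 is named after its value was seen, ATRIP for its overlap with TREX1, and TLR7 and TLR9 for their low counts. The labels and methods call the libraries biological replicates. No 2 libraries of a group agreed within sampling noise (chi-square per degree of freedom 7.67 to 29.3).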

Additional observations from a re-analysis of the deposited data

How the results depend on the processing

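The 6 calls (DDX58, IFIH1, DHX58, TLR3, TMEM173 and TREX1) stood under all 17 alternatives, with adjusted p of at most 0.00663. MAVS passed an adjusted p of 0.05 under 3 of them, with log2 fold changes of 0.22, 0.20 and 0.21, and IKBKE missed it in 3, as given in the report. Leaving out a library put MB21D1 between -0.16 and 0.04 and TBK1 between -0.19 and 0.09 on the log2 scale. MB21D1 turned positive without CELF6-OE replicate 1 (0.041) and without Control replicate 1 (0.01), and TBK1 without Control replicate 1 (0.0945). A fold change of 2 left 475 genes lower and 64 higher over the whole table and 4 of the other pathway genes lower, fewer by the construction of the threshold. When each library was left out, between 107 and 371 genes were called higher, with 107 without CELF6-OE replicate 2, 115 without Control replicate 2 and 371 without Control replicate 1, and 0 or 1 of the other pathway genes; the cause was not tested. The share of calls that were lower was 81.2%, and 72.7% without Control replicate 1.

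With the replicate number as a block (replicate block), 921 genes were lower and 201 higher, and 6 of the 10 genes were lower. Libraries of the same number did not deviate together (correlations -0.01, -0.02 and -0.07), and the fit without the block is reported. With 3 libraries in a group, these correlations cannot decide whether libraries of the same number were paired. Depth limits TMEM173 most, with 9 to 16 counts in CELF6-OE.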
